A study of Rattus norvegicus with 11 samples.

Results

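The genes described here encode the cardiac myosin chains Myh6, Myh7, Myl2, Myl3, Myl4 and Myl7, and the myosin-binding protein Mybpc1. These are 7 of the 4736 genes that the array's annotation names by a single symbol. The members are all probe sets whose platform symbol is 1 of the 7, which gave 14 of 8799 probe sets: 3 for Myh6, 2 for Myh7, 3 for Myl2, 1 for Myl3, 2 for Myl4, 2 for Myl7 and 1 for Mybpc1. A further probe set, X15939_r_at, carries both Myh6 and Myh7 and is described apart. Each probe set pools several short oligonucleotides to give a single reading per array. The tissue was heart ventricle, and the animals were Fischer-344 rats, inbred and common in work on ageing. The old group holds 6 arrays of rats aged 22 months and the young group 5 arrays of rats aged 4 months. The labels name no treatment or allele in either group. They do not say whether each array is a separate animal, so p-values reflect only how these samples spread, which may be technical.

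Myosin is the motor of the thick filament of muscle. A myosin molecule pairs heavy chains, which split ATP and pull on actin, with essential and regulatory light chains that stiffen and tune the lever arm, and myosin-binding protein C braces the filament and modulates the heads. In the heart the heavy chain comes as a fast alpha form, encoded by Myh6, and a slow, more economical beta form, encoded by Myh7. The adult rat ventricle is known for a predominance of the alpha form, and ageing, low thyroid hormone and pressure overload are known to move rodent hearts toward beta. Ventricular muscle uses the light chains Myl2 and Myl3, while Myl7 and Myl4 serve the atria and the fetal heart. Mybpc1 encodes the form of that binding protein found in slow skeletal muscle.

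Values are the authors' deposited intensity on a linear scale, in arbitrary units, from 0.2 to 307756 over the whole table. Every array had a mean of 500.5 to 501.0 after trimming 2% at both ends, so a difference is relative to the other transcripts of the same array. Differences are old minus young on the log2 scale after raising values below 47.4 to that floor. For single probe sets the standard error (SE) is from limma. The bacterial spike-in controls were brighter on old replicates 3 to 6 and young replicate 4 (11.97 to 15.24 on the log2 scale) than on the other 6 arrays (9.55 to 10.20). The GAPDH control, whose 3' over 5' signal is a check of RNA integrity, stood at 3.39 in old replicate 3, at 4.09 in old replicate 4 and at 0.07 to 0.77 elsewhere, as log2 ratios. Of 12 listed ventricular muscle markers, 10 were on the array and all 10 were bright enough to be tested, with summed intensity of the 6 that are not members between 193274 and 392919 on every array. In bulk tissue, fewer cells of a type and less RNA per cell cannot be told apart.

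None of the 14 probe sets passed the test between old and young. With limma and Benjamini-Hochberg adjustment over 5244 tested probe sets, 0 of 14 had an adjusted p under 0.05, against 0% of all probe sets tested (0 of 5244), and the smallest adjusted p of a member was 0.537. An unadjusted p under 0.05 was reached by 2 members, 1 of Myh6 and the 1 of Mybpc1, against 7.51% of all probe sets tested (3.39% higher and 4.12% lower in old). For 0 of 14 members did the old and young arrays separate without overlap, against 0.973% of all. Higher in old were 8 members and lower 6 as deposited, where 49.4% of all probe sets tested were higher in old. The median difference over the members was then 0.18, against -0.01 over all probe sets tested. The counts became 7 and 7 with quantile normalization and 6 and 8 with median centring. Under these scalings the median difference of all probe sets tested moved to -0.11 and -0.30. Above that median lay 8 of the 14 members under each of the 3 scalings. All 14 were bright enough to be tested, but the Mybpc1 probe set was so through the old arrays, since its young mean of 6.09 lay under the filter. On 11 of the 14, under 5% of the array's probe sets had a higher mean signal.

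**Figure D1:**
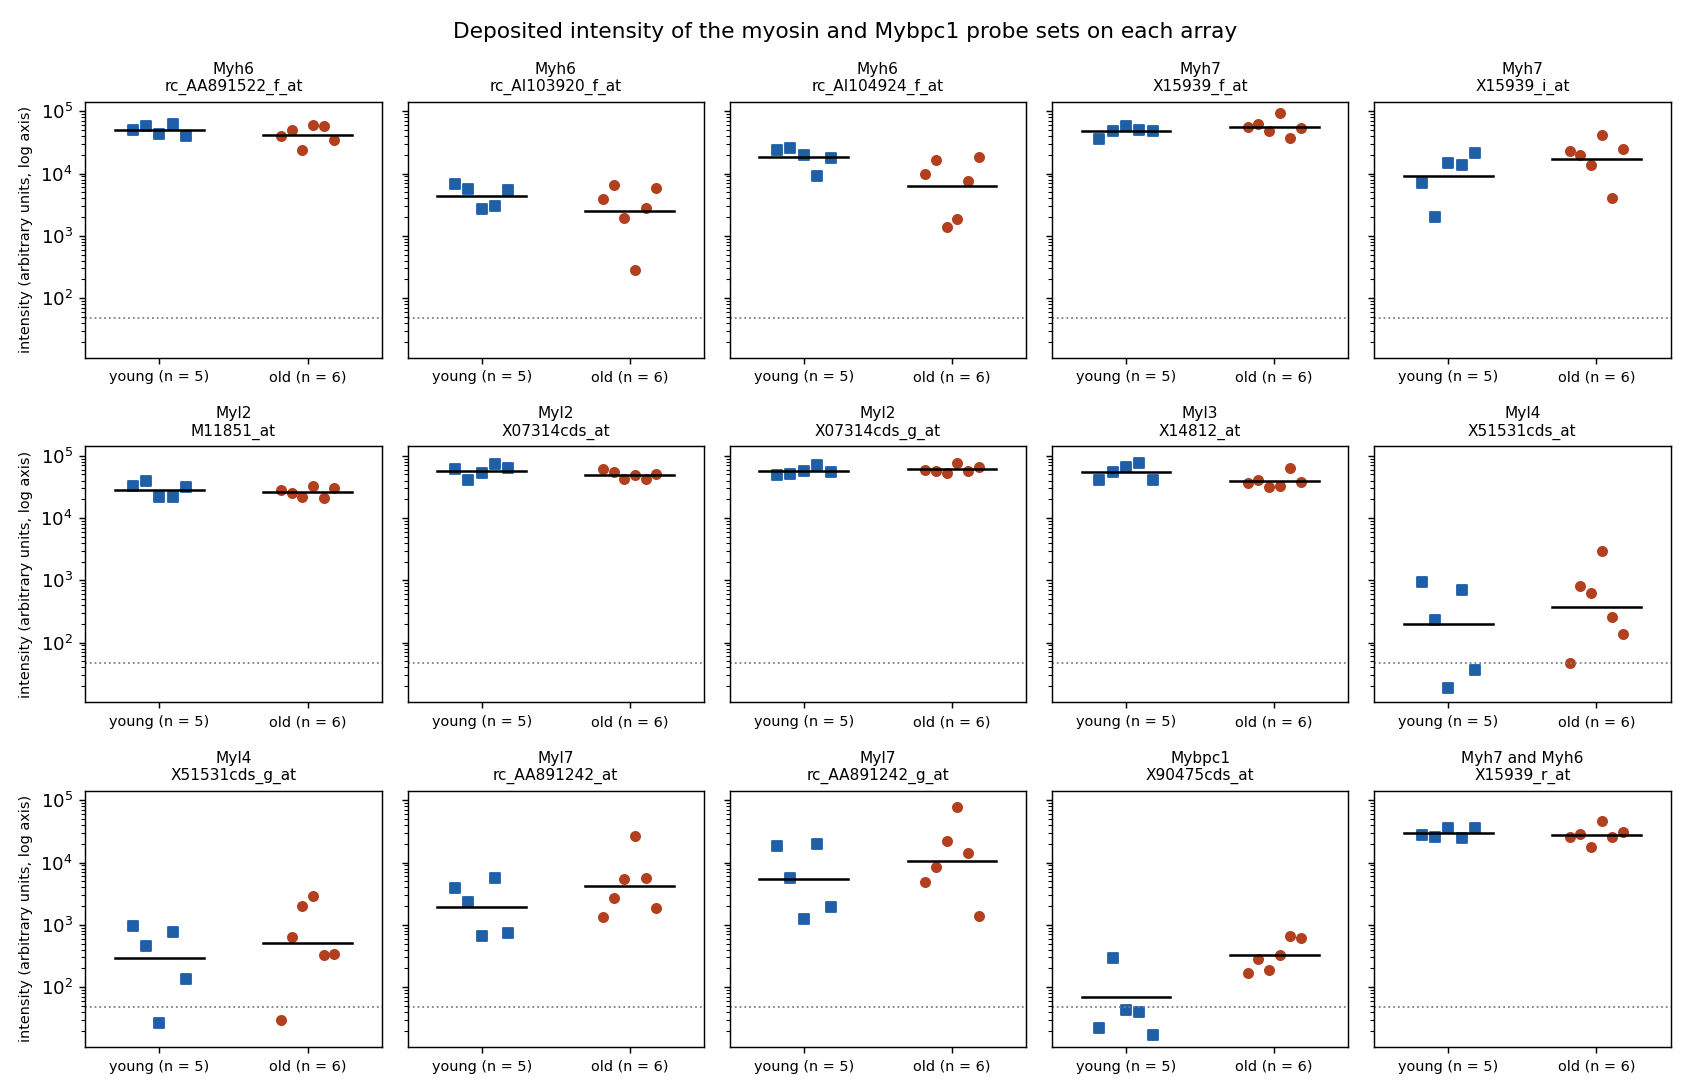
Deposited intensity (log axis, arbitrary units) of each probe set on each of the 5 young (squares) and 6 old (circles) arrays, with the group mean of log2 values as a bar and the floor of 47.4 as a dotted line. Myl2, Myl3, rc_AA891522_f_at of Myh6 and X15939_f_at of Myh7 lie close together on all arrays, while the other Myh6 and Myh7 probe sets range over 18.6-fold to 24.5-fold. The atrial light chains Myl4 and Myl7 spread widely in both groups, and Mybpc1 lies at or under the floor on 4 of 5 young arrays.

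The heavy chain genes Myh6 and Myh7 lie side by side on chromosome 15 (GRCr8, 32388102 to 32413663 and 32416525 to 32439851), 2861 bases apart. Each holds a microRNA gene, Mir208a in Myh6 and Mir208b in Myh7, which are known to be made along with their host and to take part in setting the heavy chain balance. Their mature forms are shown because each lies in one of the genes whose balance is compared here. Both are given 5′ to 3′ from RefSeq on GRCr8 (minus strand, chr15:32395568-32395585 and chr15:32421648-32421665), with the seed, bases 2 to 8, in capitals.
rno-miR-208a-3p: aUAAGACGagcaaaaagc
rno-miR-208b-3p: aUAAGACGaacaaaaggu
The seeds are identical, and 15 of 18 positions match over the whole length. The microRNAs themselves were not analysed here.

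Myh6 was read by 3 probe sets, all of the kind marked _f_at, which can take up signal from related family members such as Myh7. They did not give the same difference. On rc_AA891522_f_at the young arrays read 49108, 58856, 42557, 62186 and 39709, and the old ones had a lowest value of 23767, a median of 44297 and a highest of 60470. Old replicates 1, 3 and 6 lay below the lowest young array and the other 3 old arrays within the young range. The difference was -0.25 ± 0.32 (SE, limma adjusted p = 0.875, 95% interval -0.92 to 0.43).

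On rc_AI104924_f_at the young arrays read 23693, 25724, 20065, 9082 and 17857, and the old ones had a lowest value of 1384, a median of 8736 and a highest of 18159. Every old array was under the mean of the young ones, and old replicates 3 and 4, at 1384 and 1888, lay far below every other array. The group means were 12.61 ± 1.58 (old, n = 6, SD) against 14.15 ± 0.60 (young, n = 5, SD) on the log2 scale. The difference of -1.54 ± 0.57 (SE, 95% interval -2.73 to -0.36) had an unadjusted limma p of 0.0133 and an adjusted p of 0.56. Without old replicates 3 and 4 it was -0.57 ± 0.38 (SE, limma adjusted p = 0.901). Within the 6 arrays with dim spike-ins it was -0.77 ± 0.31 (SE, limma adjusted p = 0.621), where the old arrays, at 9756 and 16408, lay under all 4 young ones. Within the bright arrays, of which 1 is young, it was -1.05 ± 0.95 (SE, limma adjusted p = 0.998), and with spike-in class as a block -0.88 ± 0.55 (SE, limma adjusted p = 0.938).

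The remaining Myh6 probe set, rc_AI103920_f_at, read 6812, 5689, 2724, 2962 and 5342 on the young arrays. On the old ones the lowest value was 278, the median 3404 and the highest 6661. Old replicate 4 gave the 278 and old replicate 3 the next lowest value, 1900, while the other 4 old arrays lay between 2840 and 6661. The difference was -0.83 ± 0.59 (SE, limma adjusted p = 0.761) and turned to 0.049 ± 0.37 (SE) without old replicates 3 and 4. It was 0.077 ± 0.40 (SE) within the dim arrays.

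**Figure D2:**
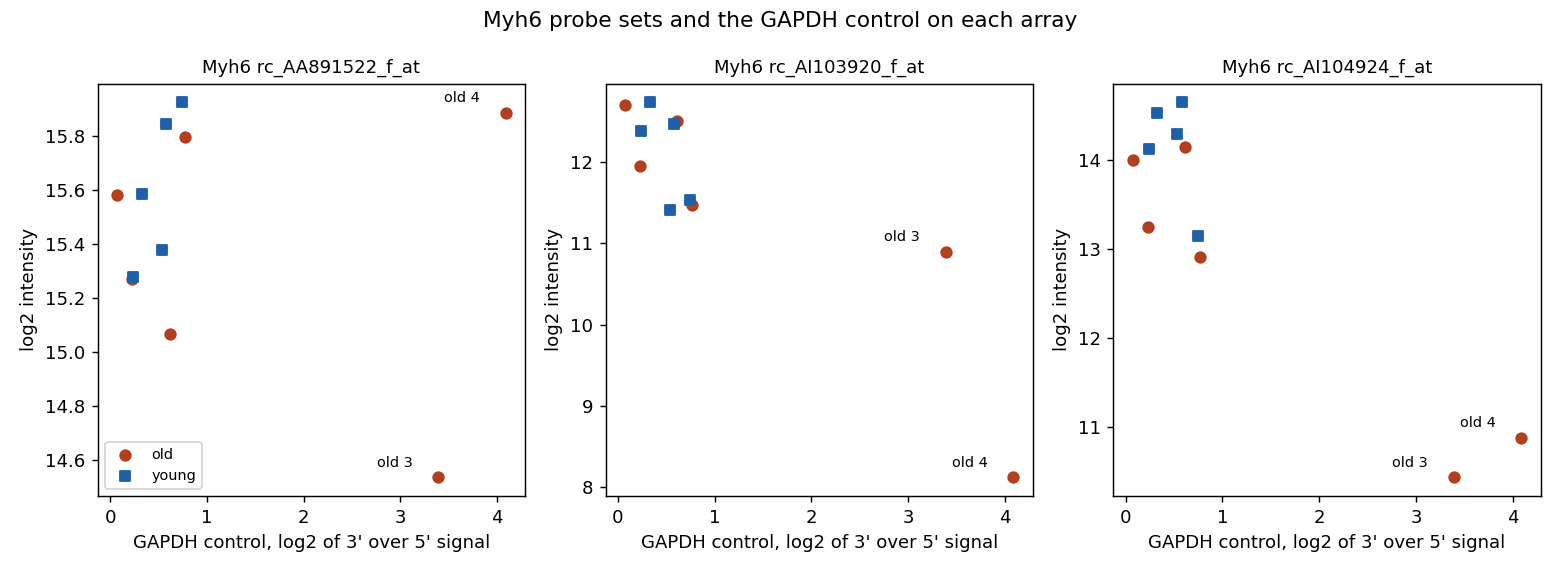
Log2 intensity of the 3 Myh6 probe sets on each array against the log2 ratio of 3' to 5' signal of the GAPDH control (squares young, circles old). Old replicates 3 and 4, with ratios of 3.39 and 4.09, are the lowest arrays on rc_AI103920_f_at and rc_AI104924_f_at, whereas on rc_AA891522_f_at old replicate 3 is the lowest array and old replicate 4 among the highest.

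Across the 11 arrays the log2 values of rc_AI103920_f_at and rc_AI104924_f_at ran together (Pearson r = 0.80, Spearman rho = 0.69). Neither followed rc_AA891522_f_at (r = -0.15 and 0.27, rho = -0.08 and 0.02). These correlations are descriptions over arrays that share their RNA and scaling between probe sets. The difference between old and young was larger on rc_AI104924_f_at than on rc_AA891522_f_at by 1.30 ± 0.72 (SE), which did not pass (exact two-sided permutation p = 0.128, adjusted p = 0.575 over 9 pairs of probe sets of 1 gene). Without old replicates 3 and 4 this gap was 0.40. The part of RNA integrity or array brightness in the Myh6 differences was not tested.

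Myh7 was read by X15939_f_at and X15939_i_at, which share a sequence identifier. On X15939_f_at the young arrays read 36071, 47457, 57564, 50644 and 48135, and the old ones ran from 37654 through a median of 54056 to 92031 in old replicate 4. The difference of 0.24 ± 0.31 (SE, limma adjusted p = 0.875, 95% interval -0.41 to 0.89) was smaller than its standard error and turned to -0.05 with median centring, under which the median of all probe sets tested was itself -0.30.

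On X15939_i_at the young arrays read 7071, 1983, 14503, 13517 and 21386, and the old ones had a lowest value of 4051, a median of 21700 and a highest of 41318. Young replicates 1 and 2 and old replicate 5 were the low arrays, and the groups overlapped. The difference was 0.94 ± 0.57 (SE, limma adjusted p = 0.717, 95% interval -0.25 to 2.12), with 5 of 6 old arrays above the young mean. It was 1.41 ± 0.73 (SE, limma adjusted p = 0.721) within the dim arrays and 0.19 ± 0.89 (SE, limma adjusted p = 0.998) within the bright ones. Without young replicate 2, the lowest array, it was 0.39 ± 0.51 (SE, limma adjusted p = 0.916), and without old replicate 5 it was 1.36 ± 0.51 (SE, limma adjusted p = 0.446). The 2 Myh7 probe sets ran together over the arrays (r = 0.69, rho = 0.75), and their age differences were not distinguished by test (-0.70 ± 0.66, SE, exact two-sided permutation p = 0.327, adjusted p = 0.635 over the 9 pairs). The probe set that carries both heavy chain symbols, X15939_r_at, read 24786 to 35571 on the young arrays and 17567 to 46115 on the old ones, a difference of -0.08 ± 0.30 (SE, limma adjusted p = 0.96).

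The balance of the isoforms was taken within each array as the mean log2 value of the Myh7 probe sets minus that of the Myh6 probe sets. Its absolute level depends on the probes, so only its change between arrays is read. The Myh6 probe sets and X15939_f_at of Myh7 are of the _f_at kind, so the signal of either gene may include some of the other. On the young arrays it was -0.32, -1.08, 1.12, 1.14 and 1.04 in the order of their replicate numbers. On the old arrays it was 1.64, 1.01, 2.70, 4.28, 0.20 and 1.24. Above the highest young array lay 4 of the 6 old arrays, and old replicates 4 and 3 were highest. The means were 1.84 ± 1.45 (old, n = 6, SD) against 0.38 ± 1.02 (young, n = 5, SD). The difference of 1.46 ± 0.75 (SE), a ratio of beta to alpha signal 2.76 times as high in old, did not pass an exact two-sided permutation test over all splits of the arrays (p = 0.0931, adjusted p = 0.279 over 3 balances).

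The direction of this balance was the same under all 27 alternatives that gave a value, with sizes from 0.48 to 1.79. That count overstates the evidence. Another floor percentile, another filter or median centring left it at 1.46. These cannot change a difference within an array between probe sets above the floor and filter. The alternatives that left out 1 array share most of their arrays. It was 0.64 ± 0.55 (SE, exact permutation p = 0.294) without old replicates 3 and 4, and 0.97 ± 0.61 (SE, exact permutation p = 0.159) without old replicate 4 alone. It was 0.48 ± 0.29 (SE, exact permutation p = 0.128) when only the brightest probe set stood for each gene. Within the dim arrays it was 1.13 ± 0.62 (SE, exact permutation p = 0.267, where 0.0667 is the smallest p possible), and within the bright arrays 0.96.

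**Figure D3:**
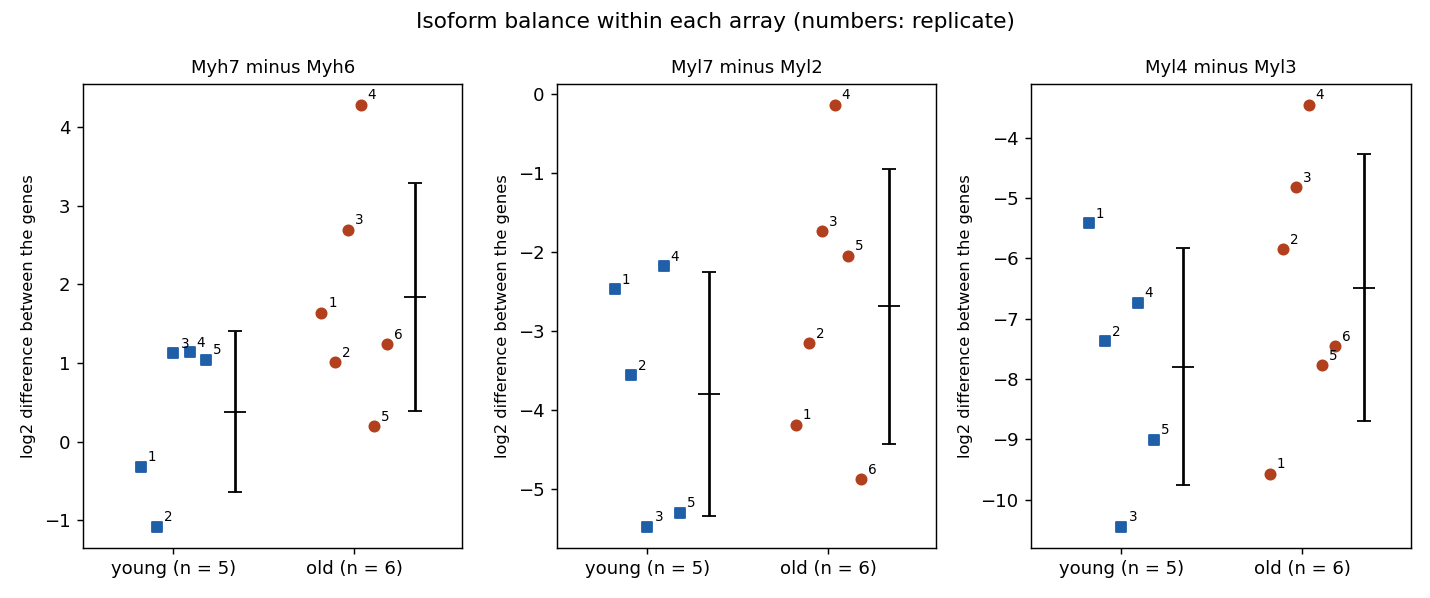
Log2 difference between isoforms within each array for Myh7 minus Myh6, Myl7 minus Myl2 and Myl4 minus Myl3, with replicate numbers beside the points and mean ± SD as black bars (squares young, circles old). The groups overlap in all 3 panels, and old replicate 4 is the highest array in each.

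The ventricular light chains were the steadiest members. Myl2, the regulatory light chain whose phosphorylation tunes ventricular contraction, was read by 3 probe sets. On X07314cds_g_at the young arrays read 49882, 51811, 57918, 70226 and 54997, and the old ones ran from 52948 through a median of 58733 to 75392. Its whole range over 11 arrays was 1.51-fold, the narrowest of the 14 members. The difference was 0.12 ± 0.29 (SE, limma adjusted p = 0.943), and turned to -0.18 with quantile normalization or median centring.

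The other Myl2 probe sets differed by -0.20 ± 0.30 (X07314cds_at, limma adjusted p = 0.887) and -0.11 ± 0.29 (M11851_at, limma adjusted p = 0.949). Their 95% intervals, -0.83 to 0.42 and -0.71 to 0.50, do not show equal levels. The 3 Myl2 probe sets did not follow each other over the arrays, with r of -0.08, -0.09 and 0.23, within a range of at most 1.83-fold for any of them.

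Myl3, the ventricular essential light chain, was read by X14812_at alone. The young arrays read 40122, 54242, 65949, 77555 and 41292, and the old ones had a lowest value of 31596, a median of 36810 and a highest of 63439 in old replicate 5. The other 5 old arrays, at 41211 or less, lay below 4 of the 5 young arrays. The difference of -0.46 ± 0.32 (SE, 95% interval -1.12 to 0.19) did not pass (limma adjusted p = 0.753), and it kept its direction in all 26 alternatives, ranging from -0.97 to -0.29.

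The atrial light chains Myl4 and Myl7 had the widest fold ranges of the members, and they varied together from array to array in both age groups. Sequence upstream of both genes is shown because these members moved together. The stretches are the 250 bases before the start given for each gene by RefSeq on GRCr8, chr10:89975900-89976149 on the plus strand for Myl4 and chr14:84996625-84996874 on the minus strand for Myl7, written 5′ to 3′. Those starts lie 26417 and 549 bases inside the outermost annotated edge of the gene, so other starts exist. Capitals mark matches to CANNTG, the E-box, and to TATAAA on either strand.
Myl4: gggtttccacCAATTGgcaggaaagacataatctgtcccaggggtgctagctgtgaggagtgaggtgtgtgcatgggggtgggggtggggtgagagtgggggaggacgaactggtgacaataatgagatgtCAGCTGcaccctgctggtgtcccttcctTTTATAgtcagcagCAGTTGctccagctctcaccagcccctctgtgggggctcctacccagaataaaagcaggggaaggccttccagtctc
Myl7: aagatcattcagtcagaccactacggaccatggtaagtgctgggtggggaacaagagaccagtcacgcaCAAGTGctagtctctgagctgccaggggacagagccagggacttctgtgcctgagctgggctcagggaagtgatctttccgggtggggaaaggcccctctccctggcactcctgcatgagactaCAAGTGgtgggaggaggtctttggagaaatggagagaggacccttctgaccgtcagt
Myl4 held 3 matches to CANNTG and 1 to TATAAA, and Myl7 held 2 and 0. Of 33469 such windows in the RefSeq table, 65.5% held CANNTG and 12.9% TATAAA. The string CATTCC, found in 12.1% of all windows, was searched on both strands too, as were AGATAA (10.3%) and the CArG box (1.5%), which can overlap TATAAA, and none matched in either window. A match is a string of letters and is no evidence of binding.

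On rc_AA891242_g_at, Myl7 read 18266, 5694, 1237, 19862 and 1939 on the young arrays in the order of replicates, and on the old ones 1389 at the lowest, 11456 at the median and 77031 at the highest. The values ran over 62.3-fold, with old replicate 4 at the top, and the old and young arrays were interleaved. The difference was 0.95 ± 0.82 (SE, limma adjusted p = 0.805), and -0.026 ± 0.78 (SE) without old replicates 3 and 4. The companion rc_AA891242_at gave 1.13 ± 0.65 (SE, limma adjusted p = 0.695), and both probe sets followed each other closely (r = 0.93, rho = 0.93). They share a sequence identifier, so they are not independent readings.

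On X51531cds_g_at, Myl4 read 942, 463, 26.7, 754 and 137 on the young arrays, and on the old ones 29.5 at the lowest, 486 at the median and 2915 at the highest. Young replicate 3 and old replicate 1 lay under the floor, and old replicates 3 and 4 were highest. The difference was 0.83 ± 0.91 (SE, limma adjusted p = 0.849, 95% interval -1.07 to 2.73), and it turned to -0.28 ± 0.89 (SE) without old replicates 3 and 4 and to -0.16 ± 0.92 (SE) with spike-in class as a block. X51531cds_at gave 0.86 ± 0.95 (SE, limma adjusted p = 0.851), and it followed its companion (r = 0.93, rho = 0.89). This pair shares a sequence identifier as well.

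Between the genes, the brightest probe sets of Myl4 and Myl7 correlated at r = 0.80 (rho = 0.87) over 11 arrays, at 0.96 within the 5 young arrays and at 0.68 within the 6 old. Without the 2 arrays farthest from the median of Myl4, r was 0.85. For each of these 2 genes, the other was the gene of another symbol with the most similar pattern on the array. The points share each array's scaling, and this is a description without a test.

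**Figure D4:**
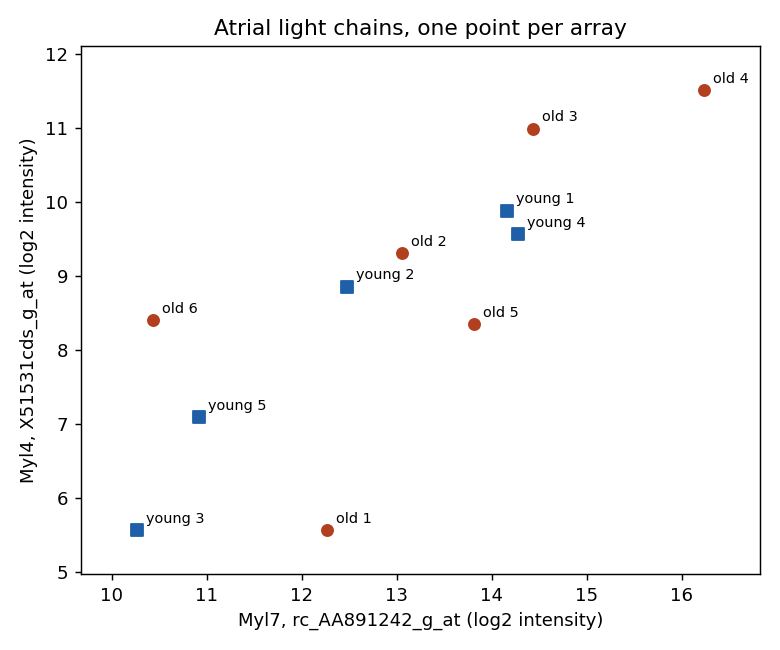
Log2 intensity of Myl4 against that of Myl7 on each array (squares young, circles old), with Myl4 values below the floor drawn at 5.57. Arrays of both ages lie along the same band, from young replicate 3 at the low end to old replicate 4 at the high end.

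The atrial over ventricular balances did not pass either. Myl7 minus Myl2 was -2.69 ± 1.74 (old, n = 6, SD) against -3.80 ± 1.54 (young, n = 5, SD), and the difference was 1.11 ± 0.99 (SE, exact two-sided permutation p = 0.288, adjusted p = 0.325). Myl4 minus Myl3 was -6.49 ± 2.21 (old, n = 6, SD) against -7.79 ± 1.96 (young, n = 5, SD), and the difference was 1.31 ± 1.26 (SE, exact two-sided permutation p = 0.325, adjusted p = 0.325). Without old replicates 3 and 4 these became 0.23 ± 0.93 and 0.13 ± 1.16 (SE). With spike-in class as a block they were 0.33 and 0.54, and within the bright arrays the first was -0.021.

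Markers of atrial muscle and of other cell types were examined beside the atrial chains. Of the 4 tested atrial markers that are not members, 2 were higher in old. Nppa differed by 1.18 ± 0.49 (SE, limma adjusted p = 0.572) on the probe set used for the list, and its other 3 probe sets gave 1.41 ± 0.48, 1.71 ± 0.50 and 1.87 ± 0.60 (SE, limma adjusted p = 0.56, 0.537 and 0.56), sizes above those of the Myl4 and Myl7 probe sets. Nppa, which encodes the atrial natriuretic peptide, and Pam, an enzyme of peptide amidation that is abundant in the atrium, ran with Myl7 at r = 0.55 and 0.46, and the channel genes Kcnj5 and Gja5 did not (r = -0.12 and -0.07). Their summed intensity was 14256 to 51212 on the old arrays and 13680 to 29438 on the young ones. All 6 smooth muscle markers (Myh11, Acta2, Tagln, Cnn1, Actg2 and Myl9) correlated positively with Myl7, at r = 0.27 to 0.80, and 5 of 6 were higher in old. Their summed intensity was 1192 to 19629 on the old arrays and 2152 to 3918 on the young ones. Old replicates 3 and 4, the arrays with GAPDH ratios of 3.39 and 4.09, were at 10913 and 19629. The 6 fibroblast markers were also all positive with Myl7 (r = 0.04 to 0.55), with sums of 24950 to 64637 in old and 28370 to 78550 in young. The 3 endothelial markers were all negative (r = -0.48 to -0.24), with sums of 348 and 468 in old replicates 3 and 4, 1260 to 1738 in the other old arrays and 1419 to 1957 in young. The 6 ventricular markers that are not members ran with Myl7 at r = -0.88 to 0.61, 4 of them positive. The 7 skeletal markers ran at -0.37 to 0.52 (2 positive) and the 4 fat markers at -0.43 to 0.06 (2 positive). The 1 macrophage marker stood at 0.35 and the 2 red cell markers at -0.15 and 0.004. The share of all probe sets with a positive r was not computed. No tested marker of these lists was at the floor on every array. The part of these cell types, or of RNA integrity, in the light chain values was not tested.

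Mybpc1 had the largest difference among the members. X90475cds_at read 22.4, 292.2, 42.7, 40.3 and 16.9 on the young arrays, and 167.3 at the lowest, 306.6 at the median and 662.9 at the highest on the old ones. Of the young arrays, 4 lay under the floor and below every old array, while young replicate 2 lay within the old range. The means were 8.35 ± 0.84 (old, n = 6, SD) against 6.09 ± 1.17 (young, n = 5, SD) on the log2 scale. The difference of 2.26 ± 0.63 (SE, 95% interval 0.94 to 3.58), or 4.79-fold on the floored scale, had an unadjusted limma p of 0.002, rank 14 of 5244, and an adjusted p of 0.537, so it did not pass. All 6 old arrays lay above the young mean. That mean of 6.09 lay under the filter and rests mostly on the 4 arrays raised to the floor. The probe set was thus tested only through its old arrays, the group where it read higher. The p, the rank and the count of old arrays are therefore descriptions only.

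The size of the Mybpc1 difference moved with the floor, from 1.66 with a floor at the 30th percentile to 2.71 at the 10th, since most young arrays sit on it. Without young replicate 2 it was 2.78 ± 0.60 (SE, limma adjusted p = 0.614). Without old replicates 3 and 4 it was 2.46 ± 0.71 (SE, limma adjusted p = 0.836), with spike-in class as a block 2.12 ± 0.72 (SE, limma adjusted p = 0.831), and within the bright arrays 3.08 ± 1.34 (SE, limma adjusted p = 0.998). Among the dim arrays the probe set was under the filter, where the old arrays read 167.3 and 283.2 and the young ones 16.9 to 292.2. The signal of this probe set was low, with 51.9% of the array's probe sets brighter, and no detection calls were used here.

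Skeletal muscle markers did not move as one with Mybpc1. Of 7 tested markers other than Mybpc1, 5 were higher and 2 lower in old, and 0 passed (limma, against 0% of all probe sets tested). Over the 11 arrays their correlation with Mybpc1 ran from r = -0.41 to 0.60 and was positive for 5 of the 7. Their summed intensity was 4028 to 7639 in old and 3377 to 6945 in young, and 0 of the 7 were at the floor on every array. On the array but under the filter were Mybpc2, Tnni2, Tnnc2, Myh2, Myh4 and Atp2a1. The part of skeletal muscle RNA in the Mybpc1 difference was not tested.

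**Figure D5:**
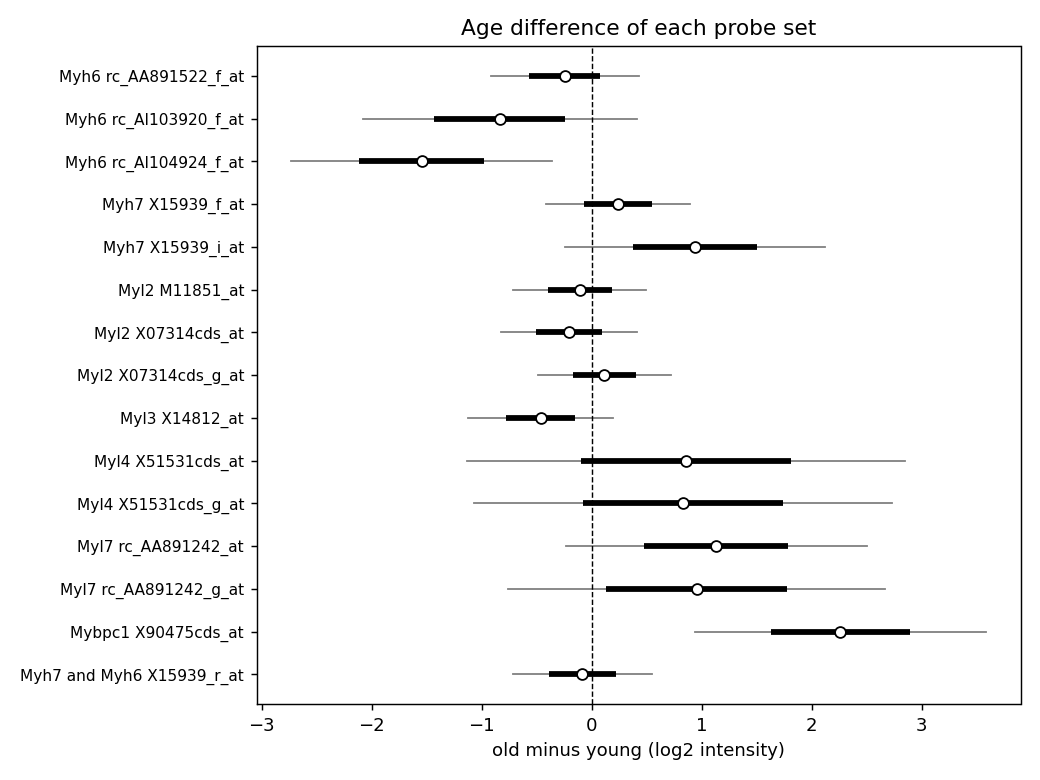
Difference between old and young (log2 intensity) for each probe set, with SE as a thick bar and the 95% interval from limma as a thin line. The intervals of Mybpc1 and of Myh6 rc_AI104924_f_at lie to 1 side of 0 before adjustment, and neither passed after adjustment over all probe sets. The young mean of Mybpc1 lay under the filter, so it was tested only through its old arrays.

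Other genes of the thick filament moved in both directions. Of 34 listed, 18 were on the array and 14 bright enough to be tested, of which 9 were higher and 5 lower in old, with a median of 0.19 against -0.01 over all probe sets tested. None passed in limma, against 0% of all, and 1 had an unadjusted p under 0.05, against 7.51%. That was Myl6b, an essential light chain of slow skeletal and non-muscle myosin, at 9.02 ± 0.90 (old, n = 6, SD) against 7.67 ± 0.58 (young, n = 5, SD), and the difference was 1.35 ± 0.51 (SE, limma adjusted p = 0.56). Myh1, the fast skeletal heavy chain IIx, differed by 0.85 ± 0.51 (SE, limma adjusted p = 0.716), and Ppp1cb, a catalytic subunit of myosin phosphatase, by 0.54 ± 0.44 (SE, limma adjusted p = 0.794).

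The tested genes known to act on heavy chain choice showed no call. They included the thyroid hormone receptor Thra, the deiodinase Dio3 and cardiac transcription factors. On the array but under the filter, and so not tested, were Thrb, Dio1, Dio2, Rxra and Ppp3cb. Of 29 listed, 16 were on the array and 11 tested, with 5 higher and 6 lower in old, a median of -0.02 and 0 calls in limma, against 49.4% higher in old and 0% called over all probe sets tested. None had an unadjusted p under 0.05 in limma, against 7.51% of all. The smallest p belonged to Rxrg, a retinoid receptor that partners the thyroid hormone receptor, at -0.89 ± 0.43 (SE, limma adjusted p = 0.661). Mef2d and Gata6, transcription factors of heart muscle, differed by -1.03 ± 0.58 and -1.08 ± 0.67 (SE, limma adjusted p = 0.683 and 0.72).

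The genes whose pattern over the 11 arrays was most like each member were found by Pearson r among 4307 to 4309 tested probe sets with another single symbol. They are a description, since the highest of so many values is high by selection. For Myh7 they were Mrpl13, a mitochondrial ribosomal protein (r = 0.83), Rab11a, a regulator of vesicle recycling (0.79), and Ankrd1, a stretch-responsive protein of the sarcomere (0.78). For Myh6, read by rc_AA891522_f_at, they were Nup37 (0.92), Arc (0.90) and Foxe1 (0.90). For Myl2 they were Gak (0.90), Lox (0.87), an enzyme that crosslinks collagen, and Frmd4b (0.84). For Myl3 they were Cyp2a2 (0.89), Prkaca (0.89), the catalytic subunit of protein kinase A, and Nxpe5l3 (0.88). For Myl7, after Myl4 (0.88), they were Sdc1 (0.87), a cell surface proteoglycan, and Ruvbl1 (0.87), and for Myl4, after Myl7 (0.86), Cyp2d3 (0.83) and Mllt10 (0.81). For Mybpc1 they were Odc1 (0.88), the ornithine decarboxylase of polyamine synthesis, Pgf (0.88), a vascular growth factor, and Alb (0.86), the serum albumin, whose own age differences were 0.91 ± 0.44, 1.54 ± 0.51 and 1.87 ± 0.58 (SE). Choice by r with Mybpc1 favours genes that differ between the groups as Mybpc1 does, so these age differences are not separate results. Another Odc1 probe set gave -0.91 ± 0.57 (SE), the opposite sign.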

How the data were processed

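RNA from 11 rat heart ventricle samples was read on 1-colour Affymetrix arrays, and the deposited values are intensity per probe set on a linear scale, as the authors processed them. Which software and settings were used is not stated in the labels. The column means were equal after trimming, so the values were not scaled again. Values below the 20th percentile of all values (47.4) were raised to it before log2. The 59 control probe sets were left out. Probe sets were tested where their mean log2 value over all 11 arrays was at or above the 40th percentile, which left 5244. Old and young were compared with limma 3.58.1 in R 4.3.3 (lmFit, eBayes with trend) and Benjamini-Hochberg adjustment over all 5244. Balances and agreement between probe sets were compared with exact two-sided permutation tests over all splits of the arrays. The SE given with them was computed from the variance within each age group, not from limma. Probe sets were named from GEO's platform annotation, in which 7006 carried 1 symbol and 308 several. Sequences and loci came from RefSeq (GRCr8).

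All member probe sets are named. Of each further pathway list, the 3 genes of smallest p are named, and for likeness the 3 genes of highest Pearson r. The members and lists were chosen with earlier results of these data known. The code was checked on simulated data. Alternatives covered the floor, filter, scaling, variance model, array weights, replicate block, each array left out, spike-in class and the threshold. No sample was left out, no 2 arrays were identical, and the number of arrays limits the precision.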

Additional observations from a re-analysis of the deposited data

Results flagged for a closer look

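On the Mybpc1 probe set X90475cds_at, young replicate 2 stood apart from the other young arrays, at 8.19 on the log2 scale against the floor of 5.57 for the other 4. Since those 4 are tied at the floor, the gap equals the whole range. This was 1 of 36 groups of arrays examined. Where values are not tied, chance sets a sample apart in this way in about 1 of 20 groups. That rate does not hold for values tied at the floor. Without young replicate 2 the Mybpc1 difference was 2.78 ± 0.60 (SE, limma adjusted p = 0.614) in place of 2.26 ± 0.63 (SE, limma adjusted p = 0.537), and the adjusted p ran from 0.118 to 0.998 over 24 alternatives.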

How the results depend on the processing

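Under 27 alternatives, 0 of the members tested passed in limma at an adjusted p of 0.05, or at the looser threshold of 1 alternative. Mybpc1 fell under the filter in some of them, as given below. Over all probe sets, the count of calls was 0 as reported, 0 to 2 when leaving out 1 array (2 without old replicate 5), 1 within the dim arrays and 5 within the bright arrays.

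Some differences, none of them past the threshold as reported, changed sign, and the cause was not tested. Myl2 X07314cds_g_at became -0.18 with quantile normalization and -0.18 with median centring, and Myh7 X15939_f_at became -0.053 with median centring. The median of all tested probe sets was -0.01 as deposited, -0.11 with quantile normalization and -0.30 with median centring. Leaving out 1 array gave -0.23 to 0.05 for X15939_r_at, -0.21 to 0.0066 for Myl2 M11851_at and -0.15 to 0.89 for the gap between Myh6 rc_AA891522_f_at and rc_AI103920_f_at. Without old replicates 3 and 4, Myh6 rc_AI103920_f_at was 0.049, Myl4 was -0.080 (X51531cds_at) and -0.28 (X51531cds_g_at), Myl7 rc_AA891242_g_at was -0.026 and the Myh6 gap was -0.22. With spike-in class as a block, Myl4 X51531cds_g_at was -0.16 and the Myh6 gap -0.038, and with spike-in brightness as covariate this Myl4 value was -0.18. Within the dim arrays, rc_AI103920_f_at was 0.077, Myl2 X07314cds_at 0.11, Myl4 X51531cds_g_at -0.41 and the Myh6 gap -0.17. Within the bright arrays, Myl2 was 0.29 (M11851_at) and -0.17 (X07314cds_g_at), Myl4 X51531cds_at -0.48, Myl7 rc_AA891242_g_at -0.55, X15939_r_at 0.19 and the Myl7 minus Myl2 balance -0.021.

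Whether the replicate numbers pair the arrays was looked at through deviations from the mean of each age group, taken per probe set. The deviations of same-numbered arrays correlated at -0.25 to 0.25, and 1 of 5 old arrays matched its own number best. This gave no clear sign of pairing but does not settle that there was none. With the replicate number as a block, which takes old replicate 6 out of the comparison because it has no young partner, 0 probe sets passed. The Myh7 minus Myh6 balance was then 1.58, Myl7 minus Myl2 1.55 and Myl4 minus Myl3 1.5. Not run were the heavy chain balance without family probe sets, which left none, and Mybpc1 within the dim arrays and with the filter at the 60th percentile, where it was not tested.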
